A study of Homo sapiens with 12 samples.

Results

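Chidamide treatment of Molt-4 cells was accompanied by the appearance of transcripts from 191 genes that gave almost no signal before it, out of the 25146 genes of the table. These genes were chosen by their measured values: a mean below 0.1 FPKM over the 3 untreated Molt-4 libraries and at least 1 FPKM in each of the 3 treated ones. FPKM (fragments scaled by transcript length and by the mapped fragments of the library) is a level per length and library size, and does not correct for differences in composition between libraries. The rule took 0.76% of all genes, and 1.85% of the 10312 genes with an untreated Molt-4 mean below 0.1 FPKM. Because Molt-4 values chose the genes, their levels in that line are given below as a description with no test. The Jurkat libraries were not used by the rule, and the tests compare those, with a spread estimated per gene over the libraries of both lines.

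The study sequenced RNA of Jurkat and Molt-4, established human lines of T-cell acute lymphoblastic leukaemia. The 4 groups of 3 libraries were untreated Jurkat, Jurkat with 2 µM chidamide, untreated Molt-4 and Molt-4 with 2 µM chidamide. Library names carry only J or M, read here as the 2 lines of the growth protocol. The treated libraries carry 48 h (replicate 1), 49 h (replicate 2) and 50 h (replicate 3) in their labels, and these times cannot be told apart from the replicate number. The protocol gives 48 h, so it is unclear whether the exposure times differed at all. No label says that replicates were separate cultures, and the p-values below measure the spread between these libraries only.

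Chidamide, also named tucidinostat, belongs to the benzamide inhibitors of histone deacetylases and acts on HDAC1, HDAC2, HDAC3 and HDAC10. Of these, HDAC1, HDAC2 and HDAC3 remove acetyl groups from histone tails, largely as subunits of corepressor complexes (NuRD, SIN3, CoREST, NCoR) that keep genes of other lineages silent. Inhibition raises histone acetylation, and transcripts of tissue-specific genes that a blood cell does not normally make are a known feature of treated cells.

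All 10 T-cell markers checked, CD3D, CD3E and LCK among them, were at a mean of at least 1 FPKM in every group, and their summed level in Molt-4 libraries was 998.1 to 1073.4 FPKM untreated and 761.7 to 790.3 treated. The libraries labelled Molt-4 also held markers of other cells before treatment. The 8 erythroid markers summed to 9366.1 to 10067.0 FPKM untreated and 20543.8 to 21036.8 treated, with the fetal globin gene HBG2 at a mean of 6000.1 and 14074.7, against 7.03 to 9.81 and 16.08 to 88.76 for the sum in Jurkat. The 7 epithelial markers summed to 108.3 to 114.2 FPKM untreated and 277.1 to 283.8 treated, with KRT5 at 0 in the untreated group, and to at most 2.36 in Jurkat. The identity of the culture labelled Molt-4 is therefore in doubt and was not tested, and Molt-4 below means the libraries with that label. The part of these cells or programmes in the results was not tested, and in bulk RNA more cells of a kind and more RNA per cell cannot be told apart. None of the marker genes is among the 191. Total FPKM per library lay between 698435 and 869059, the depth behind it is unknown, and libraries of a group correlated across genes at 0.989 to 0.995. Untreated Jurkat replicate 3 stood apart, with an SD of log2 ratios of 0.332 and 0.337 to its group against 0.233 to 0.269 for other pairs, so the main counts are also given without it.

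Promoter sequences are shown for members picked by their level in Jurkat, since the same drug at the same dose met these genes in both lines. The first 3 met the same on-off rule in Jurkat, and the next 3 had means below 0.1 FPKM in both Jurkat groups. Of these, EBI3 and FCRLA still reached 0.12 and 0.2 FPKM in their highest treated Jurkat library. Each set took the genes highest in treated Molt-4 that had 1 start in the promoter table, with 1 chromosome left out. More abundant members such as CRYM and TMEM92 are therefore not shown. Each sequence is the 250 bases before the annotated start, 5′ to 3′, from RefSeq on GRCh38.p14, and all lie on the plus strand. Capitals mark CpG dinucleotides, the sites of DNA methylation.
NPY, chr7:24283940-24284189: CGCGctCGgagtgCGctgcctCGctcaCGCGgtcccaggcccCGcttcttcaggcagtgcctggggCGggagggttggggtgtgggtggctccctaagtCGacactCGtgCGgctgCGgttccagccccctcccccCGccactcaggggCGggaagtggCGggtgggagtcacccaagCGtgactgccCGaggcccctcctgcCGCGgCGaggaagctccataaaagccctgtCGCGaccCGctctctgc
PRPH, chr12:49294897-49295146: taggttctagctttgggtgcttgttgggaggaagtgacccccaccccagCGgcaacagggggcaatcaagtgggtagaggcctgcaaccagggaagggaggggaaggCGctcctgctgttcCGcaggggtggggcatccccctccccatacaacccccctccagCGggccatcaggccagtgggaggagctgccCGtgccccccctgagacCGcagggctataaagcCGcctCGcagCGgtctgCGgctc
CYP4F22, chr19:15508275-15508524: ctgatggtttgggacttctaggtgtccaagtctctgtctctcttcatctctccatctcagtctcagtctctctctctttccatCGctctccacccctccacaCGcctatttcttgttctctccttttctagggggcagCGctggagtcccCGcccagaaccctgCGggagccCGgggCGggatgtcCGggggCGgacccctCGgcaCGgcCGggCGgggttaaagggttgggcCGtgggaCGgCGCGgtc
NLRP5, chr19:55986525-55986774: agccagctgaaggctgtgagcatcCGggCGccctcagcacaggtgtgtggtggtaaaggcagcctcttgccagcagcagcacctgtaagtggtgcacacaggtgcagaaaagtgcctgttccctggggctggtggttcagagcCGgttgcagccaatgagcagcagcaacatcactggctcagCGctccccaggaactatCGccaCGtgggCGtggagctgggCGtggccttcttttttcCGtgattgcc
EBI3, chr19:4229273-4229522: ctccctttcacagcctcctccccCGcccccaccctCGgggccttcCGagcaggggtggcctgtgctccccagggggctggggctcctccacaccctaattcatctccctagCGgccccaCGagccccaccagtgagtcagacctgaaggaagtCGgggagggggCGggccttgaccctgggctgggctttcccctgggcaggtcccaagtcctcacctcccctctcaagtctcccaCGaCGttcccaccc
FCRLA, chr1:161706979-161707228: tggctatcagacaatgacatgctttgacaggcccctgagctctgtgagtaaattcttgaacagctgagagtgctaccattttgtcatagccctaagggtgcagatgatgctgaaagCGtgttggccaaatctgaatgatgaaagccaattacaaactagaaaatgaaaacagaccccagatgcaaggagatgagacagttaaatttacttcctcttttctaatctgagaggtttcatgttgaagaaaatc

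The NPY window holds 24 CpGs, that of CYP4F22 17 and that of PRPH 10, against 9 in NLRP5, 9 in EBI3 and 1 in FCRLA. These are 6 chosen windows and carry no statement about the other members. The promoter table covers 129 of the 191 genes (67.5%), under the 80% needed, so a comparison of CpG content over the members is void and none is given. On both strands of each window 5 motifs were searched. Of the 35116 RefSeq promoters of this length 10.7% hold the TATA box (TATAAA), 42.6% the GC box (GGGCGG), 32% the CCAAT box (spelled as its name), 6.57% the AP-1 site (TGANTCA) and 6.34% the E-box (CACGTG). The PRPH window has TATAAA from 31 to 26 bases before the start, the usual place of a TATA box, and CYP4F22 has 4 matches to the GC box GGGCGG. NPY and EBI3 have 2 GC boxes each, EBI3 also has TGAGTCA (118 to 112 bases before the start), NLRP5 has CACGTG (47 to 42), and NLRP5 and FCRLA have 1 CCAAT each. No matches overlapped, and a match is a run of letters, not a shown binding site.

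A further promoter is that of HLA-DPB1, because class II MHC genes are known for a shared promoter layout that includes an inverted CCAAT box (the Y box), and 3 neighbouring class II genes are among the members. Here the capitals mark CCAAT or its reverse complement ATTGG.
HLA-DPB1, chr6:33075740-33075989: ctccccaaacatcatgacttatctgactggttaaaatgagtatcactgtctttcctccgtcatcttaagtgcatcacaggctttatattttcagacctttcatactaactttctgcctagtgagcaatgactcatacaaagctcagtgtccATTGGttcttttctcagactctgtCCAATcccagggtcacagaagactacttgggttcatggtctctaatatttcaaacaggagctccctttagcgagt

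The inverted copy lies 99 to 95 and the other 75 to 71 bases before the start, and the window also holds TGACTCA and TTTATA, the reverse complement of TATAAA. No chromatin or binding data accompany these libraries, so the letters are context for the expression values only.

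In Molt-4 itself most of the 191 genes reached low levels. Levels with ± are means and SD over 3 libraries. The treated mean had a median of 2.22 FPKM and ran from 1.09 (RAB7B) to 28.7 (THY1). It was below 2 FPKM for 73 genes, at least 5 for 31 and at least 10 for 8. Before treatment 54 genes were listed at 0 in all 3 libraries. Summed over the 191, FPKM was 6.13, 5.86 and 7.05 in the untreated Molt-4 libraries and 614.7, 665.4 and 636.7 in the treated ones. The same genes summed to 186.1, 196.5 and 209.8 in untreated Jurkat and to 743.7, 667.8 and 727.7 in treated Jurkat. A few genes such as THY1, FLT4 and CXorf49B carry much of the untreated Jurkat sum, and 116 of the 191 had a mean below 0.1 FPKM there.

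**Figure D1:**
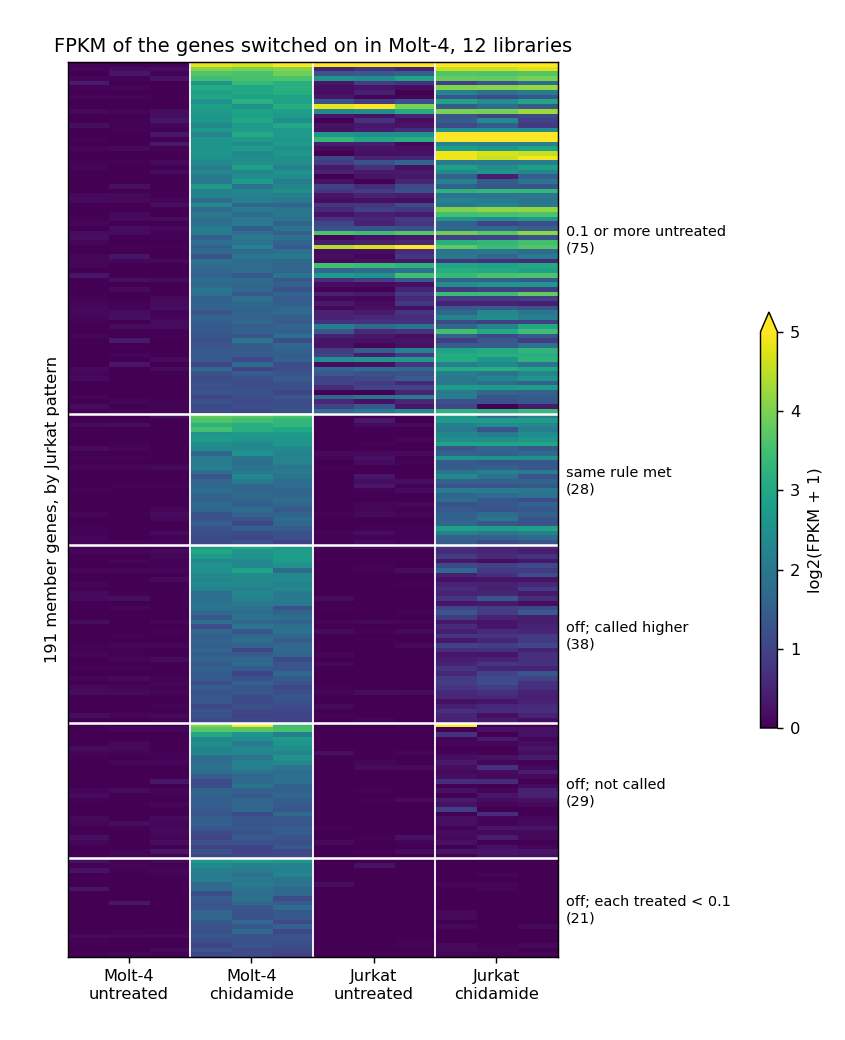
Level of each of the 191 genes (rows) in the 12 libraries (columns, 3 per group) as log2(FPKM + 1), on a scale that saturates at 5, with rows grouped by what they did in Jurkat. The untreated Molt-4 columns are dark and the treated ones lit for every gene by the rule, while the Jurkat columns separate 75 genes at 0.1 FPKM or more untreated, 28 that met the same rule, 38 off and called higher, 29 off and not called, and 21 off with each treated library below 0.1.

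The 3 treated Molt-4 libraries gave close values for most genes, with a median coefficient of variation of 14.5%. It was lowest for CDK5R2 (0.870%), which encodes an activator of the neuronal kinase CDK5, TMEM163 (0.873%) and CYP4F12 (1.30%). The G-protein subunit gene GNG8 varied most (67.1%), at 15.9, 37.64 and 10.56 FPKM in treated Molt-4 and at 41.22, 0 and 0 in treated Jurkat. PLEKHA6 (46.3%) and ID2-AS1 (47.7%) followed.

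The edges of the rule are not gaps in the data. Just inside the untreated limit were NLRP5 and C1orf61 at 0.0967 FPKM and S100A5 at 0.0933, and just outside were ADORA1, INGX and CHRNA6 at 0.1. Just inside the treated limit were MAGEA9B and TNFSF15, whose lowest treated library stood at 1 FPKM, and GPC4 at 1.01, while FAM71F1 and CACNG4 at 0.99 and TRAF1 at 0.98 fell outside. A further 132 genes met the treated limit from an untreated mean of 0.1 to 0.2 FPKM, and 206 started below 0.1 with a lowest treated value of 0.5 to 1.

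In Jurkat 133 of the 191 genes (69.6%) were called higher with chidamide, 3 (1.57%) were called lower and 55 were not called. Over all 13840 genes tested, 30.9% were called higher and 25.4% lower. The median change of the 191 was 0.77 on the log2(FPKM + 1) scale, against 0.04 over all genes tested. Without untreated Jurkat replicate 3 the counts were 128 higher and 4 lower, the fourth being TSPAN1. With the Jurkat libraries fitted alone 137 were called higher and 3 lower, and 131 of the 136 calls were kept. Called means an adjusted p under 0.05 in limma, and each change below is a difference on the log2(FPKM + 1) scale ± SE, a scale on which low genes move less than their fold. All treated libraries were above all untreated ones for 145 of the genes and below for 3, against 33.3% and 27.4% of all genes tested.

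The Jurkat calls can be split by the level before treatment. Of the 51 genes at 0.1 to 1 FPKM in untreated Jurkat 49 were called higher, with a median change of 1.57. Of the 24 at 1 FPKM or more 18 were called higher and 3 lower. The shares called among all genes tested at these levels were not worked out, so these counts only describe the members. Of the 116 below 0.1 FPKM 66 (56.9%) were called higher, with a median change of 0.43. The comparable background is 29.8%: the share called higher among the 845 genes that reached 1 FPKM in 3 Molt-4 libraries and stood below 0.1 in untreated Jurkat, the 116 included.

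The same on-off rule applied to Jurkat held for 28 of the members, which are 24.1% of the 116 and 14.7% of the 191. Among all genes 133 met it in Jurkat, which is 0.529% of all genes and 1.23% of the 10847 genes below 0.1 FPKM in untreated Jurkat, and the 28 are 21.1% of those 133. The 10847 include genes that did not reach 1 FPKM in Molt-4, as every member did, so 24.1% and 1.23% are not like for like. The share over the 845 genes of the comparable background was not worked out. At the other end 21 members had an untreated mean below 0.1 FPKM and every treated Jurkat library below 0.1 as well, and 8 of the 191 were listed at 0 in all 6 Jurkat libraries. The treated mean was higher in Jurkat than in Molt-4 for 57 members and more than 2 times the Molt-4 value for 32. Across the 191 genes the treated means of the lines correlated at r = 0.43 on the log2(FPKM + 1) scale, a description over genes chosen for their Molt-4 level.

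**Figure D2:**
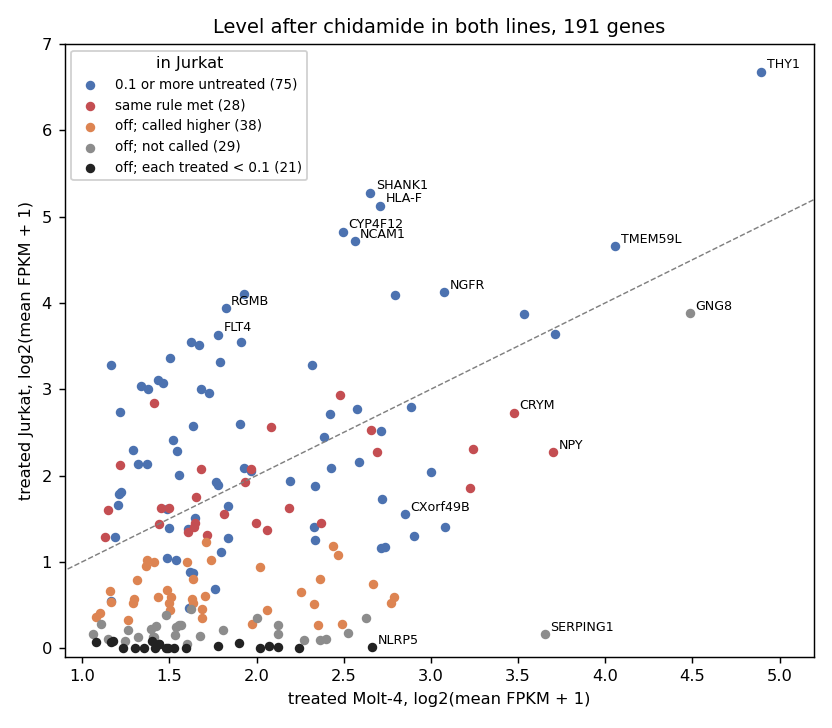
Mean level of each gene over 3 treated Molt-4 libraries (x axis) and 3 treated Jurkat libraries (y axis), both as log2(mean FPKM + 1), coloured by the Jurkat pattern, with the dashed line at equal levels. THY1 lies highest in both lines, SHANK1, HLA-F, CYP4F12 and NCAM1 lie far above the line, and SERPING1 and NLRP5 lie at the bottom.

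Neuronal genes made up the largest group, 43 of the 191 by their known roles. In Jurkat 36 of them were called higher, 1 lower and 6 not, with a median change of 1.45, and 12 met the on-off rule there. Roles were assigned by hand with the members known, so the counts describe and do not test the groups. THY1, a GPI-anchored glycoprotein of neurons and thymocytes, stood at 0.04, 0.02 and 0.03 FPKM in untreated Molt-4 and at 27.04, 25.23 and 33.96 in treated Molt-4. In Jurkat it was already at 42.19, 46.4 and 43.09 FPKM and rose to 99.79, 94.41 and 110.2 (change 1.19 ± 0.10, adjusted p = 1.06e-06). The untreated lines thus lay at opposite ends for this gene, and treated Molt-4 stayed below untreated Jurkat in every library.

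Receptors and adhesion molecules of neurons showed some of the largest Jurkat changes. NCAM1 (CD56), a homophilic adhesion molecule of neurons and natural killer cells, was at 0 in all untreated Molt-4 libraries and at 5.25, 4.23 and 5.25 FPKM in treated ones. In Jurkat it went from 0, 0.15 and 0.17 to 28.32, 25.08 and 22.44 FPKM (change 4.57 ± 0.11, adjusted p = 4.26e-11), so every treated Jurkat library exceeded every treated Molt-4 library. NGFR, the low-affinity neurotrophin receptor, reached 7.43, 6.94 and 7.96 FPKM in Molt-4 from at most 0.05. It rose in Jurkat from 0.14, 0.21 and 0.13 to 15.54, 16.3 and 17.42 FPKM (change 3.91 ± 0.09, adjusted p = 1.98e-11). UNC5B, a netrin receptor, and NFASC, an axonal adhesion molecule, were also called higher in Jurkat (1.56 ± 0.09 and 0.63 ± 0.11), NFASC not under quantile normalization. TMEM59L, a brain-enriched relative of the Golgi protein TMEM59, had the third largest Jurkat change of the 191 (4.09 ± 0.10, adjusted p = 3.92e-11), reaching 24.2 ± 1.84 FPKM there and 15.7 ± 0.714 in Molt-4.

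Genes of the synapse differed in which treated line held more transcript. SHANK1, a scaffold of the postsynaptic density, was at 5.06, 5.53 and 5.27 FPKM in treated Molt-4. Its Jurkat values were 9.06, 6.87 and 7.88 FPKM untreated and 41.26, 35.71 and 36.19 treated (change 2.12 ± 0.10, adjusted p = 8.45e-09). RIMS4, of the family of presynaptic active-zone proteins, was at 2.94, 2.42 and 2.92 FPKM in treated Molt-4 and rose in Jurkat by 3.20 ± 0.09 to 10.23, 10.75 and 11.05. GABRD, a GABA-A receptor subunit, rose in Jurkat by 1.56 ± 0.22, and its treated values overlap between the lines, at 1.42 to 3.07 FPKM in Molt-4 and 2.16 to 3.21 in Jurkat. LGI4, of the family of secreted leucine-rich LGI proteins, had less in Jurkat, at 1.46 FPKM in treated Molt-4 and 0.487 in treated Jurkat (means of 3), and its higher call there was lost under quantile normalization. For the CaMKII inhibitor gene CAMK2N2 the Jurkat libraries stood at 4.48, 5.16 and 5.48 FPKM untreated and 7.41, 5.22 and 8.37 treated, which overlap, and it was not called (0.39 ± 0.16, adjusted p = 0.052). It was called in 4 of the 20 other settings, among them without treated Jurkat replicate 2 (adjusted p = 0.00666) or without treated Molt-4 replicate 2 (0.0398).

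NPY, PRPH, DPYSL5, SNCB and ZCCHC12 were neuronal genes off in both untreated lines and on in both treated ones. The peptide neurotransmitter gene NPY, whose promoter is the richest in CpG of those printed, was at 0, 0 and 0.18 FPKM in untreated Molt-4 and at 12.86, 12.22 and 10.96 in treated Molt-4. In Jurkat it was listed at 0 in all untreated libraries and at 5.41, 2.45 and 3.61 FPKM in treated ones (change 2.22 ± 0.18, adjusted p = 6.7e-07), below every treated Molt-4 library. PRPH, the intermediate filament peripherin of peripheral neurons, stood at 8.57, 7.87 and 8.95 FPKM in treated Molt-4 and at 3.46, 4.4 and 3.97 in treated Jurkat, where it had been at most 0.09 (2.22 ± 0.10, adjusted p = 5.67e-09). Both are lower in Jurkat. The order was the other way for DPYSL5, which encodes a collapsin response mediator of axon growth, at 4.58 ± 0.520 FPKM in treated Molt-4 and 6.61 ± 0.170 in treated Jurkat (2.91 ± 0.09, adjusted p = 2.86e-10). It was also the other way for ZCCHC12, at 1.66 ± 0.247 and 6.16 ± 0.285 FPKM. The synuclein family gene SNCB reached 2.46 to 3.23 and 2.79 to 3.56 FPKM, which overlap.

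**Figure D3:**
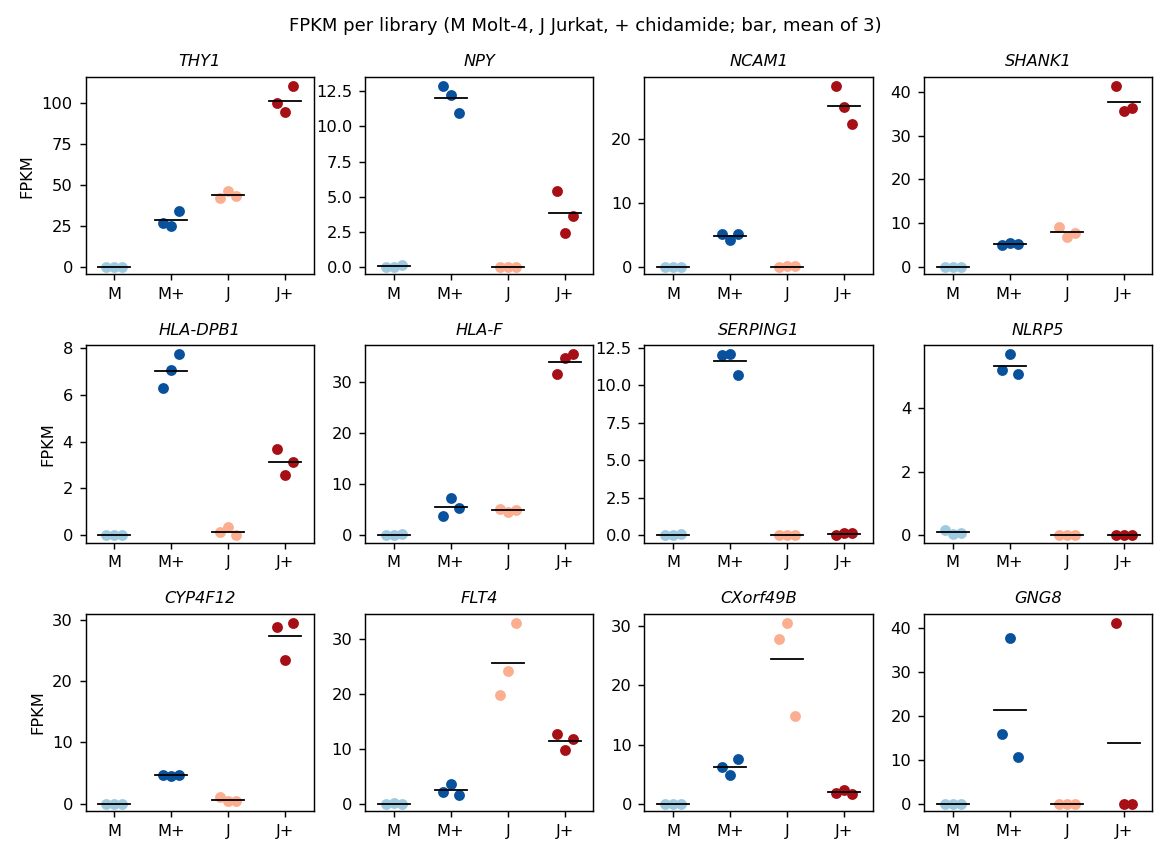
FPKM of 12 genes in each library, with the scale of each panel its own: M and J are untreated Molt-4 and Jurkat, the plus sign marks chidamide, points are libraries and bars the mean of 3. THY1, SHANK1 and HLA-F had Jurkat levels above 0 before treatment, NPY and NCAM1 appear with chidamide in both lines, SERPING1 and NLRP5 appear in Molt-4 while Jurkat stays at or below 0.18 FPKM, FLT4 and CXorf49B go down in Jurkat, and 1 treated Jurkat library alone sets the GNG8 mean.

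SRCIN1, a regulator of Src kinase at synapses, reached 12.1 ± 1.61 FPKM in Molt-4 and 11.5 ± 0.294 in Jurkat (2.20 ± 0.12, adjusted p = 2.77e-08). C1orf61, a gene first described in fetal brain, reached 10.6 ± 0.487 and 13.6 ± 0.965 FPKM, from 5.33 ± 1.06 in untreated Jurkat (1.21 ± 0.12, adjusted p = 3.45e-06). Other neuronal genes had no call, a call lost in some fits, or a lower call in Jurkat. PVALB, the calcium buffer parvalbumin of fast-spiking interneurons, reached 6.87, 5.17 and 3.48 FPKM in treated Molt-4 but 0.63, 0 and 0.18 in treated Jurkat (0.31 ± 0.20, adjusted p = 0.197), though it was called with a pseudocount of 0.1 (0.0401). RGMB, a co-receptor for bone morphogenetic proteins, was at 10.8, 9.91 and 11.9 FPKM in untreated Jurkat and 14.06, 12.25 and 16.68 in treated Jurkat. Its call (0.36 ± 0.14, adjusted p = 0.0467) was lost on leaving out any of 8 libraries, with adjusted p up to 0.183 without treated Jurkat replicate 3. The ubiquitin ligase gene NEURL1 fell in Jurkat from 10.16, 9.34 and 8.43 to 6.69, 6.42 and 7.19 FPKM (change -0.41 ± 0.09, adjusted p = 0.00239), while Molt-4 went from at most 0.07 to 2.14 to 2.44. The general neuronal markers outside the 191 were uneven too: the 8 checked summed to 8.53 to 9.49 FPKM in untreated and 80.82 to 87.93 in treated Molt-4, carried by TUBB3 and SYP, with SNAP25 at 0 in both groups. In Jurkat that sum was 11.38 to 15.73 and 97.74 to 106 FPKM.

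Immune and myeloid genes were the next largest group with 30 members, of which 21 were called higher in Jurkat and 9 not called, with a median change of 0.52. SERPING1, the complement C1 inhibitor, was the most abundant, at 12.01, 12.04 and 10.7 FPKM in treated Molt-4 after 0, 0.05 and 0.07. In Jurkat it was listed at 0 in each untreated library and at 0, 0.17 and 0.18 FPKM in the treated ones, and was not called (0.16 ± 0.09, adjusted p = 0.181), but was with a pseudocount of 0.1 (adjusted p = 0.0394). EBI3, the beta subunit shared by IL-27 and IL-35, and FCRLA, a B-cell Fc receptor-like protein, reached 4.28 ± 0.911 and 4.15 ± 0.458 FPKM in treated Molt-4. Their highest Jurkat libraries were at 0.12 and 0.2 FPKM. FCRLA was not called in Jurkat (adjusted p = 0.499). EBI3 was not called in Jurkat (adjusted p = 0.454) but was with a pseudocount of 0.1 (0.0293) and with the Jurkat libraries fitted alone (0.0287). TCN1, a vitamin B12 binder of neutrophil granules, was at 3.21 ± 0.605 FPKM in treated Molt-4 and at most 0.05 in any Jurkat library.

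Class II MHC genes, which present peptides to CD4+ T cells, contributed HLA-DPA1, HLA-DPB1 and HLA-DOA, adjacent members in the RefSeq gene order. All 3 were listed at 0 in each untreated Molt-4 library. HLA-DPB1 was at 6.3, 7.04 and 7.71 FPKM in treated Molt-4, and in Jurkat rose from 0.13, 0.36 and 0 to 3.68, 2.59 and 3.12 (change 1.83 ± 0.13, adjusted p = 2.69e-07). Its alpha chain partner HLA-DPA1 was at 2.2, 4.81 and 3.66 FPKM in treated Molt-4 and rose in Jurkat from 0.09, 0.08 and 0.09 to 1.97, 1.9 and 2.34 (1.50 ± 0.17, adjusted p = 1.15e-05). HLA-DOA, part of a chaperone that restrains peptide loading, differed in its start: it was at 2.19, 2.42 and 2.74 FPKM in untreated Jurkat and rose to 7.62, 7.05 and 6.3 (1.21 ± 0.10, adjusted p = 6.34e-07). The treated groups of the 3 genes did not overlap the untreated ones in Jurkat. The non-classical class I gene HLA-F was at 3.87, 7.33 and 5.42 FPKM in treated Molt-4, level with untreated Jurkat at 5.14, 4.68 and 4.94, and rose in Jurkat to 31.55, 34.84 and 35.45 (2.56 ± 0.16, adjusted p = 1.03e-07).

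Among T-cell effector genes, TBX21 (T-bet), the transcription factor of type 1 helper cells, was listed at 0 in untreated Molt-4 and stood at 2.32, 2.41 and 2.57 FPKM in treated Molt-4. In Jurkat it rose from 0.1, 0.13 and 0.56 to 2.74, 3 and 2.38 (1.57 ± 0.13, adjusted p = 8.1e-07). The type 2 cytokine gene IL13 reached 2.11 ± 0.561 FPKM in Molt-4 and 0.44 ± 0.0917 in Jurkat, where its higher call (0.41 ± 0.12, adjusted p = 0.0117) was lost and its sign turned under quantile normalization (-0.02). Myeloid members included CXCR1 and S100A9, called higher in Jurkat (0.52 ± 0.09 and 0.97 ± 0.14), and CSF2RB, the common beta chain of the GM-CSF, IL-3 and IL-5 receptors, not called (adjusted p = 0.25) but called with a pseudocount of 0.1 (0.00831) and with the Jurkat libraries fitted alone (0.00654). The 7 myeloid markers outside the 191 summed to 11.29 to 12.33 FPKM in untreated and 89.78 to 90.29 in treated Molt-4, mostly LYZ at a mean of 62.9, with MPO at 0 and 0.133. In Jurkat they summed to at most 4.84. B-cell markers summed to 3.65 to 5.72 and 18.72 to 23.41 FPKM in Molt-4, with MS4A1 at 0 in both groups. In Jurkat the B-cell sum was 25.09 to 30.15 FPKM untreated and 11.83 to 12.79 treated, mostly CD79A. The part of either programme in the immune members was not tested.

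**Figure D4:**
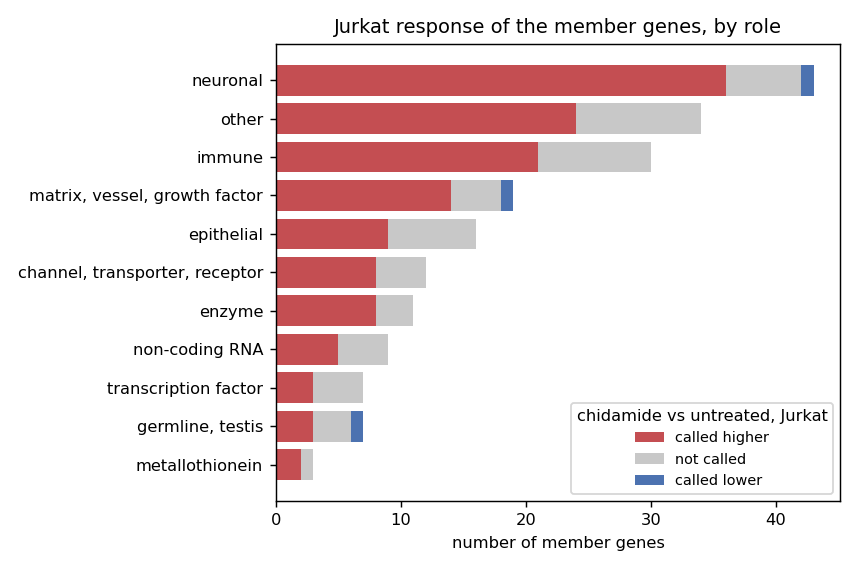
Number of member genes by role (bars, starting at 0), split by the Jurkat call: higher, not called or lower with chidamide. The neuronal bar is the longest with 36 of 43 called higher, and the 3 lower calls sit in the neuronal, matrix and germline bars.

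Matrix, vascular and growth factor genes numbered 19, with 14 called higher in Jurkat and 1 lower (median change 0.55). COL6A2, a chain of type VI collagen, was at 5.38, 5.66 and 5.61 FPKM in treated Molt-4 and rose in Jurkat from 0.16, 0.31 and 0.58 to 4.8, 4.97 and 4.44 (2.10 ± 0.11, adjusted p = 1.87e-08). The EGF receptor ligand gene TGFA reached 2.55, 1.58 and 2.1 FPKM in Molt-4, and in Jurkat rose from 0.35, 0.28 and 0.79 to 9.46, 9.71 and 12.92 (2.99 ± 0.16, adjusted p = 2.14e-08). COL5A3 and PDGFB were called higher in Jurkat at lower levels (0.28 ± 0.08 and 0.45 ± 0.12), and both calls were lost under quantile normalization. COL16A1 was called (0.39 ± 0.14, adjusted p = 0.0281) but not on leaving out any of 5 Jurkat libraries, and its sign turned under quantile normalization (-0.10). ACVRL1 (ALK1), an endothelial receptor of the TGF-beta family, was at 3.36 ± 1.38 FPKM in treated Molt-4. In Jurkat it was listed at 0 untreated and at 0.14, 0.19 and 0.28 FPKM treated, not called (adjusted p = 0.197) but called with a pseudocount of 0.1 (7.03e-04), with the Jurkat libraries fitted alone (0.0055) or without treated Molt-4 replicate 3 (0.022).

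FLT4 (VEGFR3), the receptor of lymphatic endothelium for VEGF-C, ran in opposite directions. It was at 0, 0.04 and 0.03 FPKM in untreated Molt-4 and 2.05, 3.61 and 1.65 in treated Molt-4. In Jurkat it fell from 19.83, 24.15 and 32.9 to 12.69, 9.74 and 11.67 FPKM (change -1.08 ± 0.21, adjusted p = 0.000725), without overlap, and treated Jurkat still lay above treated Molt-4. The 8 fibroblast and endothelial markers outside the 191 summed to 16.15 to 22.05 FPKM in untreated and 65.02 to 71 in treated Molt-4, mostly COL1A1 and PECAM1, with COL1A2 at 0 untreated and 0.0667 treated. In Jurkat the same markers summed to 76.16 to 86.43 FPKM untreated and 82.35 to 86.29 treated. Their part in the matrix members was not tested.

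Epithelial genes numbered 16, with 9 called higher in Jurkat, 7 not called and a median change of 0.50. TMEM92 was the most abundant at 10.35, 7.75 and 6.98 FPKM in treated Molt-4, and in Jurkat went from at most 0.02 to 3.08, 1.45 and 3.31 (1.80 ± 0.19, adjusted p = 6.84e-06). The 3 kallikrein-related peptidase genes, members of one gene cluster, were all listed at 0 in the untreated libraries of both lines and differed in treated Jurkat. KLK4 reached 2.1, 2.38 and 2.64 FPKM there, as high as its 2.04, 2.32 and 2.09 in Molt-4, and was called higher (1.75 ± 0.09, adjusted p = 1.22e-08). KLK10 reached 0.84, 0.4 and 0.31 FPKM (0.58 ± 0.15, adjusted p = 0.00523). KLK6 stood at 4.06, 4.45 and 5.75 FPKM in Molt-4 and at 0.05, 0.28 and 0.05 in Jurkat, not called (adjusted p = 0.254), though called with a pseudocount of 0.1 (0.0205). CEACAM22P, a pseudogene of the carcinoembryonic antigen family, was at 3.73 ± 0.265 FPKM in treated Molt-4 and listed at 0 in every treated Jurkat library. The motor protein genes MYH14 and MYO5B were called higher in Jurkat (0.50 ± 0.09 and 0.64 ± 0.14), MYO5B not under quantile normalization.

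The 11 enzyme genes included 8 called higher in Jurkat and none lower. CYP4F12, a fatty acid omega-hydroxylase of the cytochrome P450 family, was among the most even genes in treated Molt-4 at 4.7, 4.58 and 4.65 FPKM. In Jurkat it rose from 1.07, 0.39 and 0.43 to 28.85, 23.51 and 29.56 FPKM (4.14 ± 0.14, adjusted p = 6.5e-10), above Molt-4 in every library. Its relative CYP4F22, which makes very long chain omega-hydroxy fatty acids for the skin barrier, met the on-off rule in both lines at 5.67, 5.02 and 5.26 FPKM in Molt-4 and 4.55, 4.56 and 5.14 in Jurkat (2.48 ± 0.09, adjusted p = 6.12e-10). CRYM, a thyroid hormone binding ketimine reductase, reached 11.38, 10.04 and 8.96 FPKM in Molt-4 and 5.4, 5.66 and 5.81 in Jurkat (2.62 ± 0.11, adjusted p = 4.2e-09). These 3 had the largest Jurkat changes of their group. The glutathione transferase gene GSTA2 was at 2.03 ± 0.781 FPKM in treated Molt-4 and not called in Jurkat (adjusted p = 0.806).

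Channels, transporters and signalling receptors numbered 12, with 8 called higher in Jurkat. KCNS3, a silent subunit of voltage-gated potassium channels, was at 3.13, 2.85 and 3.75 FPKM in treated Molt-4 and rose in Jurkat from 0.05, 0.18 and 0 to 5.05, 4.93 and 4.72 (2.46 ± 0.10, adjusted p = 2.9e-09). Outside these 12 by role, 2 members encode adhesion G-protein-coupled receptors: ADGRG5 was called higher in Jurkat (0.86 ± 0.16) and ADGRG6 not (adjusted p = 0.0936), though it was without treated Jurkat replicate 1 (0.0298), with a pseudocount of 0.1 (0.018) and with no filter (0.0329). RGS4, which shortens G-protein signals and was counted as neuronal, was called (0.33 ± 0.10, adjusted p = 0.013) but not without treated Jurkat replicate 3 (0.058). Of the 12, the T-type calcium channel gene CACNA1G also met the rule in both lines, and ABCC8, the sulfonylurea receptor, and HRH2, a histamine receptor, were called higher in Jurkat (0.97 ± 0.19 and 0.66 ± 0.09). SLC52A3, a riboflavin transporter, reached 3.38, 3.11 and 3.6 FPKM in Molt-4 and stayed at or below 0.02 in Jurkat. The mitochondrial carrier gene SLC25A27 was called in Jurkat (0.59 ± 0.22, adjusted p = 0.0362) but not on leaving out any of 4 libraries. GNG8 was not called (adjusted p = 0.183), since only treated Jurkat replicate 1 was above 0.

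Transcription factors were 7, besides TBX21, and here 4 were not called in Jurkat. The homeobox gene EN1 and the zinc finger gene SALL3, both developmental regulators, were listed at 0 in all 6 Jurkat libraries. EN1 stood at 1.38, 2.2 and 1.08 FPKM and SALL3 at 1.6, 1.38 and 1.43 in treated Molt-4. HNF4A, a nuclear receptor of liver and gut, reached 2.45, 3.61 and 4 FPKM in Molt-4 and 0.26, 0.07 and 0.04 in treated Jurkat (0.12 ± 0.13, adjusted p = 0.484). LHX1 in contrast rose in Jurkat from 0 in each library to 0.88, 1.27 and 0.65 FPKM (0.94 ± 0.13, adjusted p = 5.82e-05). EBF4 rose in Jurkat from 2.07 ± 1.38 to 7.43 ± 1.14 FPKM (1.55 ± 0.24, adjusted p = 0.000171).

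Germline and testis genes were 7. CXorf49B ran against the rest: it was listed at 0 in untreated Molt-4 and reached 6.18, 4.85 and 7.59 FPKM with chidamide, while in Jurkat it fell from 27.83, 30.63 and 14.83 to 1.79, 2.36 and 1.64 (change -3.06 ± 0.23, adjusted p = 3.31e-07). The groups did not overlap, and after treatment Molt-4 was the higher line. NLRP5, an oocyte protein of the early embryo, was at 5.2, 5.69 and 5.09 FPKM in treated Molt-4 and at most 0.02 in any Jurkat library. MAGEA9B rose in Jurkat from 2.09, 2.48 and 2.19 to 7.34, 7.66 and 6.63 FPKM (1.34 ± 0.15, adjusted p = 1.29e-05), and PAGE4 and RFPL4A met the rule in both lines. SSX4 and SSX4B carry identical values in all 12 libraries and cannot be told apart, and CXorf49B and MAGEA9B also have near-identical copies on the X chromosome among which reads may be split. General germ cell markers outside the 191, such as DAZL and DDX4, summed to at most 1.33 FPKM in any library.

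The metallothionein genes, which bind zinc and copper, gave 3 members that differed in Jurkat. MT1F stood at 4.8, 8.2 and 6.22 FPKM in treated Molt-4 and rose in Jurkat from 1.43, 0.85 and 1.33 to 6.39, 4.61 and 6.74 (1.65 ± 0.17, adjusted p = 6.77e-06). MT3 and MT4 are neighbours in the RefSeq order. MT3 rose from 0, 0 and 0.41 to 3.16, 2.16 and 1.99 FPKM in Jurkat (1.60 ± 0.16, adjusted p = 3.37e-06), whereas MT4, at 1.74, 2.7 and 1.21 FPKM in treated Molt-4, was listed at 0 in all 6 Jurkat libraries.

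By the roles assigned, non-coding RNAs gave 9 members, of which 5 were called higher in Jurkat and none met the on-off rule there. LINC00479 was at 4.02, 4.38 and 4.07 FPKM in treated Molt-4 and rose in Jurkat from 0 to 0.36, 0.62 and 1.25 (0.77 ± 0.15, adjusted p = 0.000706). LOC100507195 rose by 1.60 ± 0.22 to 2.68 ± 0.891 FPKM, against 4.04 ± 1.56 in Molt-4. The call of LINC01589 (0.45 ± 0.17, adjusted p = 0.0368) was lost on leaving out any of 5 Jurkat libraries. HOXC-AS1, antisense to HOXC genes, reached 1.52, 2.23 and 1.7 FPKM in Molt-4 and was listed at 0 in all Jurkat libraries. The strand setting of the counting is not given in the sources used here, so reads of an antisense gene and its partner cannot be told apart. Of the 191 genes 179 are protein coding in RefSeq, 9 are lncRNAs, 2 are pseudogenes and 1 was not matched. The unmatched one is LOC100507195, and the lncRNAs include C1orf61, called higher in Jurkat and counted above as neuronal.

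The remaining 34 members had mixed or less defined roles, with 24 called higher in Jurkat, 10 not called and a median change of 0.87. The olfactory bulb calcium-binding protein gene S100A5 was the most abundant in Molt-4 at 5.26, 9.19 and 7.96 FPKM, and its Jurkat call (0.74 ± 0.23, adjusted p = 0.0176) was lost without untreated replicate 1 or treated replicate 3. PLEKHA6, at 4.66, 6.35 and 2.27 FPKM in treated Molt-4 and 2.22, 0.8 and 0.8 in treated Jurkat, was called (1.05 ± 0.27, adjusted p = 0.00547), but not under quantile normalization. TTC9B, a tetratricopeptide repeat gene, reached 5.57 ± 1.43 FPKM in Molt-4 and was called in Jurkat (0.86 ± 0.16), again not under quantile normalization. TMEM255A was at 3.83 ± 0.0839 FPKM in treated Molt-4 and at most 0.15 in any Jurkat library. FAXC stood at 2.19, 2.84 and 3.13 FPKM in untreated and 3.2, 1.53 and 1.74 in treated Jurkat, which overlap. It was not called (-0.27 ± 0.17, adjusted p = 0.214) but was called lower without treated Jurkat replicate 1 (adjusted p = 0.00962).

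Among the members 9 pairs are next to each other in the RefSeq gene order. The number of such pairs for genes taken at random was not worked out, so the count is not judged high or low. In PTH2 and GFY, and in the class II genes, both neighbours were called higher in Jurkat. In ABCC8 and USH1C, C1QL4 and DNAJC22, ANKRD24 and EBI3, NCF4 and CSF2RB, and MT3 and MT4 only 1 of the pair was called, and of SSX4 and SSX4B neither. For NCF4 that call was lost without any of 3 Jurkat libraries, and with a pseudocount of 0.1 the partners USH1C (adjusted p = 0.00227), DNAJC22 (0.0191), EBI3 (0.0293) and CSF2RB (0.00831) were called higher too. The rule could take only genes below 0.1 FPKM in untreated Molt-4, and it took 1.85% of those. Among such genes, symbol-based lists of families gave 12 of 187 myeloid and immune genes (6.42%), 4 of 77 synapse genes (5.19%) and 11 of 218 cytokine, growth factor and receptor genes (5.05%). A neurotransmitter receptor list, which also holds the peptide gene NPY, gave 4 of 104 (3.85%). Other lists gave 7 of 186 homeobox and lineage transcription factor genes (3.76%), 5 of 191 germline genes (2.62%), 3 of 507 other G-protein-coupled receptor and signalling genes (0.592%) and 9 of 4285 non-coding rows (0.21%). Only 3 of the 37 erythroid and globin genes and 77 of the 624 zinc finger genes were low enough to be taken, of which 0 and 1 are members. The non-coding rows are 4285 of the 10312 genes behind the 1.85% and lower it. A share somewhat above 1.85% is therefore not shown to be raised over the other genes. These shares are counts with no test.

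A list of silencing machinery held 40 genes of deacetylase, methyltransferase and DNA methylation complexes, with HDAC10 and REST among them. All were expressed in both lines, so by the rule none could be a member. In Molt-4 7 of the 40 were called higher and 18 lower with chidamide, against 35.4% and 24.6% of all genes tested. In Jurkat 8 of the 40 were called higher and 15 lower, against 30.9% and 25.4% of all genes tested. Of the deacetylases that chidamide inhibits, HDAC3 was called higher in both lines (0.44 ± 0.05 in Jurkat and 0.17 ± 0.05 in Molt-4). HDAC1 was called higher in Molt-4 (0.18 ± 0.06, adjusted p = 0.0332) and HDAC10 lower there (-0.37 ± 0.12, adjusted p = 0.018), and HDAC2 was not called in either line (0.09 ± 0.05 and -0.10 ± 0.05). RCOR2, a CoREST corepressor expressed in the nervous system, rose from 2.23 ± 0.463 to 12.3 ± 0.391 FPKM in Molt-4 (2.06 ± 0.13, adjusted p = 5.09e-08) and from 6.14 ± 1.02 to 23.3 ± 2.14 in Jurkat. UHRF1, which guides maintenance DNA methylation, fell by 0.90 ± 0.05 in Molt-4 (adjusted p = 4.77e-08), from 249.7 to 133.7 FPKM. It was also called lower in Jurkat (-0.38 ± 0.05, adjusted p = 7.88e-05). CHD3, a NuRD remodeller, fell by 1.31 ± 0.05 in Jurkat (adjusted p = 1.07e-09) and was called lower in Molt-4 too (-0.23 ± 0.05, adjusted p = 0.00147). REST, the repressor of neuronal genes, was not called in either line (0.18 ± 0.09 and -0.09 ± 0.09).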

How the data were processed

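RNA of 12 libraries was measured by the study as 4 groups of 3 libraries. The values are FPKM per gene that the authors deposited, in a table of 25146 genes by symbol. Per the submitters' processing notes STAR, HTSeq, DESeq2 and the build hg19 were used. Versions, the annotation, the counting options and the step that gave FPKM are not given in the sources used here. No read counts are among the values used, so the depth is unknown and no counting interval is given. Of 23270 low values 25.7% lay within 0.15 of a whole multiple of what 1 read would be worth, so whole reads were not recovered. All columns of values per sample were used.

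Genes with at least 1 FPKM in at least 3 of the 12 libraries were tested, which left 13840. All 191 genes pass that filter through the treated Molt-4 libraries. Values were taken as log2(FPKM + 1), a pseudocount of 1, and limma 3.58.1 in R 4.3.3 fitted the 4 group means to the 12 libraries together (lmFit, then eBayes with its trend option, which left 8 residual degrees of freedom). Two-sided p-values were adjusted over the 13840 genes (Benjamini-Hochberg) and called under 0.05. Counts and figures were made with Python 3.11.15, pandas 2.3.3, numpy 2.4.6 and matplotlib 3.10.9. Changes in Molt-4 of the 191 genes were not tested, since those values chose them, but the SE of each Jurkat change rests on the residual spread of all 12 libraries, the Molt-4 ones included.

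Members, lists, roles and markers were chosen with earlier results of these data known. Genes named by rule were those highest in treated Molt-4 (10 in all, 3 in each list of gene families), the 8 largest rises and up to 5 falls in Jurkat, the 5 highest in untreated Jurkat, the 5 highest among genes below 0.1 FPKM in both Jurkat groups, the 3 most and 3 least variable, and the 3 nearest each limit of the rule. Other genes that describe a role were named after their values were seen. Some genes are not reported here. Gene symbols were matched to RefSeq (GRCh38.p14) for 190 of the 191, and no coordinates were used other than those of the printed promoters. Alternatives were a pseudocount of 0.1, no filter, a filter of 5 FPKM, quantile normalization, scaling by median of ratios, 1 line fitted alone, a block for the replicate number, the robust form of eBayes, other limits of the rule, and each library left out in turn. Replicate numbers were not taken as pairs in the main fit.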

Additional observations from a re-analysis of the deposited data

Results flagged for a closer look

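CXorf49B, FLT4 and NEURL1 ran in opposite directions in the lines. By the rule each reached 1 FPKM in every treated Molt-4 library from a mean below 0.1, while in Jurkat every treated library lay below every untreated one. The Jurkat changes on the log2(FPKM + 1) scale were -3.06 for CXorf49B, -1.08 for FLT4 and -0.41 for NEURL1, each below 0 in 3 of 3 treated libraries. The difference between the lines was not tested, because the Molt-4 values chose the genes. Each lower call in Jurkat was kept under every alternative that was run. The 3 genes also stood at 24.4, 25.6 and 9.31 FPKM in untreated Jurkat, all among the 5 highest of the 191 there.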

How the results depend on the processing

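The count of 133 members called higher in Jurkat was 95 under quantile normalization, 43 with a filter of 5 FPKM, which tests only 49 of the 191, 145 with a pseudocount of 0.1, 136 with no filter, 137 with the Jurkat libraries fitted alone, 131 with scaling by median of ratios, 133 with robust eBayes and 123 to 134 with 1 library left out. The count called lower, 3, was 8 under quantile normalization and 5 without treated Jurkat replicate 1 (FAXC and TSPAN1 added), with a range of 3 to 5 over libraries left out. Quantile normalization called 3589 genes higher and 4039 lower over the whole table, against 4277 and 3509. It turned the sign of 29 members on the log2 scale, of which 18 were called in neither fit. The other 11 were COL16A1 (-0.10), SLAMF7 (-0.0074), SELENOP (-0.0439), VIPR1 (-0.0657), BTN1A1 (-0.0262), NCF4 (-0.11), RIPK3 (-0.0046), IL13 (-0.0201), LGI4 (-0.0234), PPP1R1B (-0.38, adjusted p by limma 0.021) and ARHGEF16 (-0.27, adjusted p 0.0391). A further 28 members lost their call there, and TMEM255A (-0.30, adjusted p 0.0171), FAXC (-0.66, 0.00519) and TSPAN1 (-0.83, 0.0114) were called lower as well. The cause was not tested.

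Of the 136 called members 98 kept the call in every setting that tested them, 38 lost it in at least 1, and 12 of these lost it when 1 library was left out. Of the members not called 24 were called in at least 1 setting.

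The number of members depends on the limits of the rule: 133 with an untreated mean below 0.05 FPKM and 322 with one below 0.2. It was 397 with 0.5 FPKM and 90 with 2 FPKM in each treated library, and 201 to 218 with 1 library left out. Of the 28 meeting the rule in Jurkat 18 remained by count with an untreated limit of 0.05 and 12 with a treated limit of 2, and 25 to 31 were counted with 1 library left out. Silencing machinery genes called were 20 to 25 in Jurkat (23) and 23 to 27 in Molt-4 (25) with 1 library left out.

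With the replicate number as a block 132 members were called higher and 3 lower. RGMB (adjusted p 0.0603) and LINC01589 (0.0526) lost the call and CAMK2N2 (0.0263) gained it. Treated and untreated samples of the same number in a line did not deviate together across genes, with correlations of -0.038 to 0.041. Whether they shared a culture or a day cannot be told from this.

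The comparison of CpG content over members was not run, since the promoter table holds too few of them. Depth is unknown, so a value of 0 gives no upper limit.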
